A study of Homo sapiens with 4 samples.

Results

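The MEIS, PBX and PKNOX genes encode homeodomain transcription factors of the TALE class, so named for additional amino acids in a loop of the homeodomain. The genes examined were MEIS1, MEIS2, MEIS3, PBX2, PBX3, PBX4, PKNOX1 and PKNOX2, taken by Ensembl identifier from the table of read counts, which makes 8 of 60234 genes. Of the PBX family, PBX2, PBX3 and PBX4 were analysed here. The libraries came from NKX2.5:GFP hESCs, a human embryonic stem cell line in which 1 allele of the cardiac gene NKX2-5 carries eGFP, so that fluorescence marks cells of the cardiac lineage. Embryoid bodies were differentiated towards the heart with retinoic acid (RA) at 1 µM from day 4 to day 7. Control cells (CTR) received the solvent DMSO over the same days. Both cultures were sorted on GFP weeks after this exposure had ended, so "with RA" means an early exposure and not RA present at the sort. The sort gave RA GFP-positive, RA GFP-negative, CTR GFP-positive and CTR GFP-negative cells, all of the same line and reporter allele, with 1 library of each. The comparisons ask how these genes differed with RA within each sorted fraction, and between the fractions within each treatment. As there was 1 library per condition, a difference has no replicate check and none was tested, and because RA-treated and CTR cells grew in separate cultures, the treatment and the culture cannot be told apart.

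PBX proteins bind DNA together with HOX proteins, and MEIS and PKNOX proteins (the latter also known as PREP) bind PBX proteins through a region outside the homeodomain and help to bring them into the nucleus. Such complexes sharpen the choice of target sites of HOX proteins, and they also work beside GATA, NKX2-5 and other factors in the developing heart. MEIS2 was described early as a gene induced by RA in embryonal carcinoma cells, and MEIS and PBX genes take part in patterning of the hindbrain, the limb and the outflow of the heart.

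The libraries held 28125727 reads for RA GFP-positive, 26222787 for RA GFP-negative, 28643091 for CTR GFP-positive and 4371101 for CTR GFP-negative cells, so that the last is the least precise. Levels are given as CPM, that is counts scaled to library size, here with TMM factors, and each interval is a 95% interval for counting error only, as amplified reads are not independent molecules. The sort was checked against 11 cardiomyocyte markers, whose summed level was 17752 and 21276 CPM in the RA and CTR GFP-positive cells and 527 and 997 CPM in the GFP-negative cells. These markers include NKX2-5, whose difference was set by sorting on its reporter. It made up 463 and 593 CPM of the GFP-positive sums, RA first. The GFP-negative cells were rich in stromal transcripts, with a summed level of 10 fibroblast and stroma markers of 61688 CPM in RA and 32154 CPM in CTR. Mitochondrial genes took 14.9% and 14.1% of the GFP-positive reads, RA first, and 5.56% and 7.48% of the GFP-negative reads. In such bulk samples, fewer cells of a type and less RNA per cell cannot be told apart.

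All 8 genes had reads in every library. Divided by the total exon length of each gene, PBX2 had the highest level per kb in each of the 4 libraries, from 25.4 CPM per kb in RA GFP-negative to 36.6 CPM per kb in CTR GFP-positive cells. PBX4 had the lowest, from 1.12 CPM per kb in RA GFP-positive to 2.44 CPM per kb in CTR GFP-positive cells. Between them, the order shifted with the fraction: MEIS2 came next in both GFP-positive libraries, at 25.6 CPM per kb with RA and 22.1 CPM per kb in CTR, whereas MEIS3 came next in both GFP-negative libraries, at 20.5 and 16.9 CPM per kb. PBX3 was always in the upper part of the order at 11.4 to 18.8 CPM per kb, and MEIS1, PKNOX1 and PKNOX2 lay at 2.01 to 7.19 CPM per kb. The neighbours PKNOX1 and PKNOX2 in both GFP-positive libraries, MEIS3 and MEIS1 in CTR GFP-positive cells, and PKNOX2 and MEIS1 as well as PKNOX1 and PBX4 in CTR GFP-negative cells had intervals that overlapped. With the length of the canonical transcript instead, an alternative chosen after the data were seen, MEIS2 came first in RA GFP-positive cells and MEIS3 in both GFP-negative libraries, and PBX4 and PKNOX1 changed places at the end of the order in CTR GFP-negative cells. The leading place of PBX2 therefore depends on the length used.

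**Figure D1:**
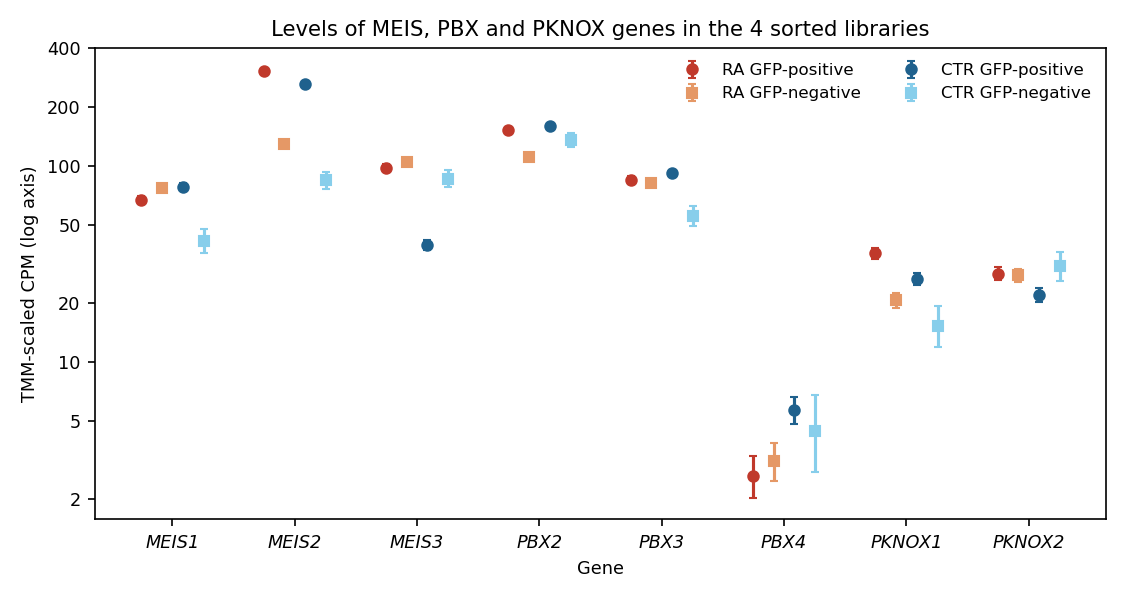
Level of each gene in CPM on a log axis in the 4 libraries (1 library per condition), with bars for the 95% Poisson interval of counting error. MEIS2 is higher in both GFP-positive than in both GFP-negative libraries, MEIS3 is lowest in CTR GFP-positive cells at 39.5 CPM, and PBX4 stays below 10 CPM throughout.

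Of the 8 genes, 7 reached 10 CPM in either library of a comparison, and PBX4 did not in any. In GFP-positive cells, 1 of these 7 genes, MEIS3, was at least 2-fold higher with RA and 0 were at least 2-fold lower, where 4.45% and 1.86% of 11186 genes were. In GFP-negative cells 0 of 7 passed 2-fold in either direction, against 5.42% of 11606 genes that were higher and 3.58% that were lower with RA. Between the fractions, MEIS2 alone was at least 2-fold higher in GFP-positive cells with RA (10.5% of 11850 genes were) and 0 genes were lower (13.0%). In CTR, MEIS2 was at least 2-fold higher in GFP-positive cells (12.7% of 11806 genes were) and MEIS3 at least 2-fold lower (13.8%). As a single gene is already a larger share of 7 than these, the counts say little about the group as a whole. The intervals of the ratios with RA lay above 1 for 4 and below 1 for 2 of the 7 genes in GFP-positive cells (36.2% and 32.4% of genes), and for 5 and 1 in GFP-negative cells (35.3% and 23.7%). Those of GFP-positive over GFP-negative cells lay above 1 for 3 and below 1 for 2 genes with RA (43.0% and 40.7% of genes), and for 5 and 2 in CTR (41.2% and 33.8%).

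The median log2 difference of the 8 genes, taken on log2(CPM + 1), was 0.08 with RA in GFP-positive cells, beside 0.00 over all genes with at least 4 reads in either library. In GFP-negative cells it was 0.34 beside 0.16. GFP-positive cells differed from GFP-negative cells by a median of 0.04 with RA (all genes −0.01) and of 0.50 in CTR (all genes 0.19). The single genes spread widely around these medians, from −0.89 for PBX4 to 1.30 for MEIS3 with RA in GFP-positive cells and from −1.11 for MEIS3 to 1.63 for MEIS2 between the CTR fractions. The comparisons share libraries in pairs, so a value in one is not independent of the next.

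**Figure D2:**
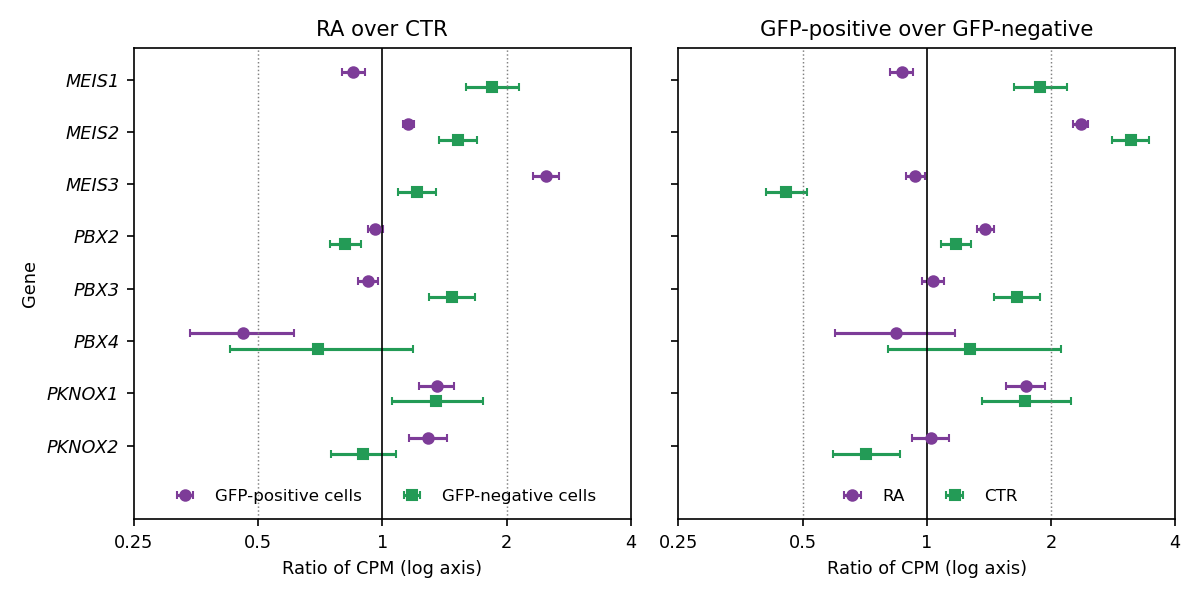
Ratios of CPM on a log axis, RA over CTR within each fraction on the left and GFP-positive over GFP-negative within each treatment on the right, with bars for the 95% interval of counting error and dotted lines at 2-fold. MEIS3 lies at 2.49 in GFP-positive cells on the left and MEIS2 at 2.36 and 3.12 on the right, while the bars of PBX4, which has few reads, are the widest.

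MEIS3 (ENSG00000105419), a MEIS gene best known from patterning of the hindbrain, lies on the minus strand at chr19:47906381-47922784 (GRCh37). Its level was 98.4 CPM in RA GFP-positive, 105 CPM in RA GFP-negative, 39.5 CPM in CTR GFP-positive and 86.5 CPM in CTR GFP-negative cells. CTR GFP-positive cells thus stood apart on the low side, and the other libraries lay close together. In GFP-positive cells MEIS3 was 2.49-fold higher with RA (95% interval 2.32 to 2.67), a difference larger than that of 97.0% of the 11186 genes, and in GFP-negative cells 1.21-fold higher (1.09 to 1.35). Without RA, GFP-positive cells had 0.456 of the GFP-negative level (0.407 to 0.513), and with RA 0.938 (0.888 to 0.990). The ratio of RA over CTR in GFP-positive cells was 2.05 times that in GFP-negative cells (1.81 to 2.33), with counting error only.

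MEIS3 has annotated near-identical copies, MEIS3P1 and MEIS3P2, which held 41 to 282 and 25 to 124 reads per library beside 406 to 2692 for MEIS3, and the split of reads between them is uncertain. With the reads of the copies added, which was chosen after the data were seen, the ratio with RA in GFP-positive cells was 2.14 (2.01 to 2.28), and the ratio between the CTR fractions was 0.518, no longer past 2-fold. Stromal transcripts moved in the same direction as MEIS3 in GFP-positive cells. All 7 of the 10 stroma markers that reached 10 CPM there were at least 2-fold higher with RA (4.45% of all genes were), and the summed level of the 10 rose from 3970 to 15181 CPM, that is from 12.3% to 24.6% of the level of the GFP-negative cells of the same treatment. Among them, LUM, which encodes the matrix proteoglycan lumican, was at 10.6 CPM in CTR and 53.7 CPM in RA GFP-positive cells. Single stroma markers stood at a median of 7.07% of the GFP-negative level in CTR and 16.2% with RA, and PDGFRA, at 151% and 213%, was the highest. Of 10 neural and neural crest markers, STMN2 (1.26 CPM in CTR and 42.5 CPM in RA GFP-positive cells) and MAP2 (6.35 and 23.6 CPM) made up most of the difference in the summed level, which was 22.1 and 83.0 CPM, while SOX2 was at 0.872 and 1.12 CPM. The summed level of 12 gut and liver endoderm markers was 29.6 CPM in CTR and 82.6 CPM in RA GFP-positive cells, with AFP, the gene of the fetal plasma protein alpha-fetoprotein, at 0.279 and 22.6 CPM. The part of these other cell types in the MEIS3 level was not tested, and MEIS3 itself stood at 45.6% of the GFP-negative level in CTR and at 93.8% with RA.

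MEIS2 (ENSG00000134138), on the minus strand at chr15:37181405-37393500, had the widest range of the 8 genes. It is a cofactor needed for development of the cardiac outflow and the face, and variants in it cause heart defects and cleft palate. Its level was 304 CPM in RA GFP-positive, 129 CPM in RA GFP-negative, 263 CPM in CTR GFP-positive and 84.5 CPM in CTR GFP-negative cells, so both GFP-positive libraries lay above both GFP-negative ones. This range of 3.60-fold exceeded that of 82.4% of the 12407 genes that reached 10 CPM in any library. GFP-positive cells had 2.36 times the GFP-negative level with RA (2.27 to 2.46) and 3.12 times in CTR (2.82 to 3.46). With RA the level was 1.16-fold higher in GFP-positive cells (1.12 to 1.19) and 1.53-fold higher in GFP-negative cells (1.37 to 1.70), both short of 2-fold. The differences between fractions were thus larger than those with RA. Of the exon bases of MEIS2, 3.62% are shared with a transcript of the opposite strand, which held at most 6 reads.

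MEIS1 (ENSG00000143995, plus strand, chr2:66660584-66801001) and PBX3 (ENSG00000167081, plus strand, chr9:128509624-128729656) had the most similar profiles of all 28 pairs of the 8 genes. MEIS1 is known in the heart for its part in the withdrawal of cardiomyocytes from the cell cycle, and both proteins are known as partners of HOXA9 in leukaemia. MEIS1 was at 67.0 CPM in RA GFP-positive, 77.0 CPM in RA GFP-negative, 78.7 CPM in CTR GFP-positive and 41.7 CPM in CTR GFP-negative cells. PBX3 was at 85.0, 82.1, 92.2 and 55.8 CPM in the same order. For both, CTR GFP-negative cells, the library with the fewest reads, were lowest and CTR GFP-positive cells highest. With RA, MEIS1 was at 0.851 of the CTR level in GFP-positive cells (0.800 to 0.906) but 1.84-fold higher in GFP-negative cells (1.59 to 2.15). PBX3 was at 0.923 of the CTR level (0.872 to 0.976) and 1.47-fold higher (1.29 to 1.68). In CTR the GFP-positive level of both exceeded the GFP-negative level, by 1.88-fold for MEIS1 (1.63 to 2.19) and 1.65-fold for PBX3 (1.45 to 1.88), whereas with RA the ratios were 0.870 and 1.04.

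Both genes thus differed with RA in opposite directions in the 2 fractions. The ratio of RA over CTR in GFP-positive cells, divided by that in GFP-negative cells, was 0.461 for MEIS1 (0.394 to 0.541). For PBX3 it was 0.627 (0.545 to 0.721). Of all genes, 4.45% fell below the value of MEIS1 and 11.2% below that of PBX3. With all libraries thinned to 4371101 reads, PBX3 differed by −0.014 on the log2 scale in GFP-positive cells, against −0.11 at full depth. The intervals hold counting error only, and the values rest on 196 and 262 reads in CTR GFP-negative cells. Markers of other cell types in the GFP-negative fraction also moved with RA: the summed level of 9 eye and pigment markers was 766 CPM in CTR and 99.5 CPM with RA, that of 12 gut and liver endoderm markers 115 and 897 CPM, and that of the stroma markers 32154 and 61688 CPM. AFP alone was at 2.98 CPM in CTR and 465 CPM with RA. Of the 11 endoderm markers that reached 10 CPM, 9 were at least 2-fold higher and 1 lower (5.42% and 3.58% of all genes). Only 3 endoderm markers reached 10 CPM in a CTR library, so most of the 11 passed this minimum through the RA library. The count of higher markers was thus largely set by the minimum. The summed level of the 7 epicardium markers was 906 CPM in CTR and 529 CPM with RA, and that of the 6 pluripotency markers 20.02 and 63.6 CPM. Their part in the MEIS1 and PBX3 levels was not tested. Antisense transcripts share 13.3% of the exon bases of MEIS1, and they held at most 9 reads for MEIS1-AS2 and 20 reads for MEIS1-AS3.

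**Figure D3:**
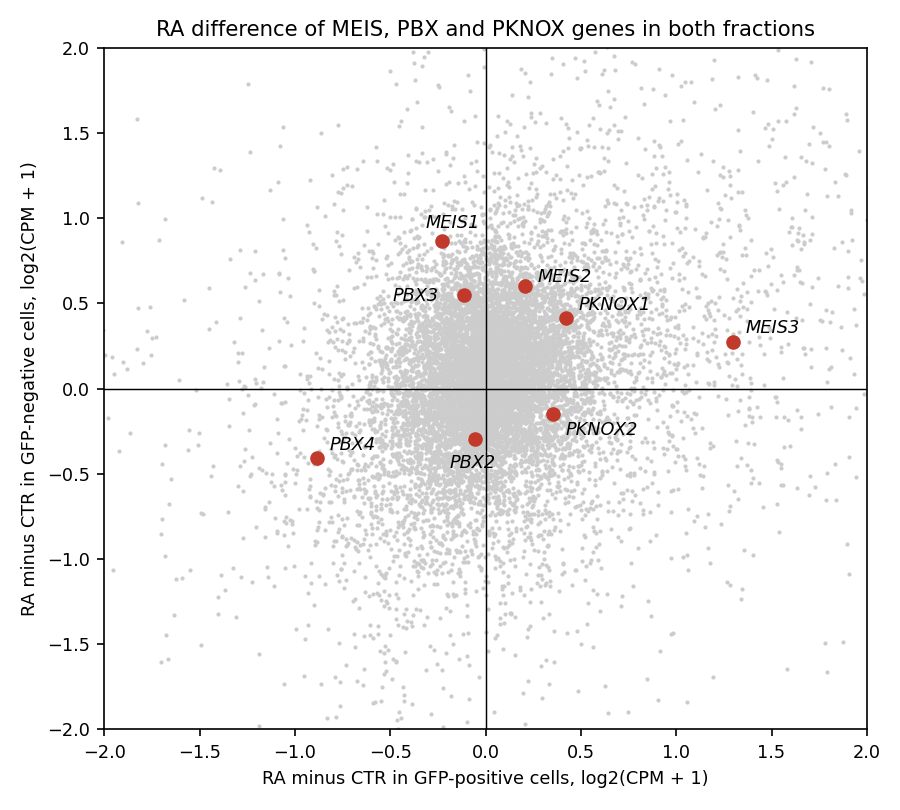
Difference of log2(CPM + 1) between RA and CTR for the GFP-positive (x axis) and the GFP-negative fraction (y axis), for the 8 named genes over 12407 genes in grey, of which 367 lie outside the axes. MEIS1 (−0.23 and 0.87) and PBX3 (−0.11 and 0.55) lie in the upper left quadrant, and MEIS3 (1.30 and 0.28) lies farthest to the right of the 8 genes.

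The promoters of these genes were searched for binding motifs of the family itself and of retinoid receptors. The windows span 250 bases before to 50 after the RefSeq start on GRCh38.p14, another build than the hg19 of the reads, and were matched by symbol for 7 of the 8 genes, in 9 windows. TGACAG, the core bound by MEIS and PKNOX proteins, and TGATNNAT, a site of PBX with HOX, were searched on both strands. So was AGGTCA, an exact half-site of the looser repeats that retinoid receptors bind. TGACAG was found in 15.8%, TGATNNAT in 7.40% and AGGTCA in 13.8% of 35116 such windows of all genes. Among the 9 windows, TGACAG was found in that of PBX3 and TGATNNAT in 1 of the windows of MEIS2, and AGGTCA in 0. A match describes the letters only, and 0 matches to AGGTCA do not show that a site for retinoid receptors is absent. For 7 of the 9 windows the bases after the start were found in a transcript of the gene, and the MEIS2 window printed here was not among them. The windows of MEIS1 and PBX3, the pair with the closest profiles, of MEIS3, the gene past 2-fold with RA, and of MEIS2 are given from 5′ to 3′ on the strand of the gene, with capitals for matches to a motif.
MEIS1 (chr2:66434875-66435174, plus strand, GRCh38.p14): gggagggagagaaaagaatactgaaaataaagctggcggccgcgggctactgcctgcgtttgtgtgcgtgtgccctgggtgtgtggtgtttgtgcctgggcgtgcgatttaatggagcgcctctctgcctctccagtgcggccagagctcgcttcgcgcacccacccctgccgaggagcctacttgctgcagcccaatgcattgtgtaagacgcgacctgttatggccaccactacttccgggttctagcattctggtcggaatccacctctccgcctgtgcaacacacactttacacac
PBX3 (chr9:125747933-125748232, plus strand, GRCh38.p14): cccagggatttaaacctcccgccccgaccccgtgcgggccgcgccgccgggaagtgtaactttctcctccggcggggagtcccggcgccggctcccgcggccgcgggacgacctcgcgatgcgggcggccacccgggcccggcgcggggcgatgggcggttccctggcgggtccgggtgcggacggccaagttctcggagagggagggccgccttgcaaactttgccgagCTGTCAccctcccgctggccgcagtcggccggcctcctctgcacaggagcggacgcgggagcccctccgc
MEIS3 (chr19:47419478-47419777, minus strand, GRCh38.p14): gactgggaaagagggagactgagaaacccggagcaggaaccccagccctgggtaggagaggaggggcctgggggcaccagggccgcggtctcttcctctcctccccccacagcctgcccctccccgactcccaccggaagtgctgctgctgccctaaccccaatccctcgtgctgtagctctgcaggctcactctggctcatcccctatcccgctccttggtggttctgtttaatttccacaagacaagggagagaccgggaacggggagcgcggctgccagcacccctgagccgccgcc
MEIS2 (chr15:37098647-37098946, minus strand, GRCh38.p14): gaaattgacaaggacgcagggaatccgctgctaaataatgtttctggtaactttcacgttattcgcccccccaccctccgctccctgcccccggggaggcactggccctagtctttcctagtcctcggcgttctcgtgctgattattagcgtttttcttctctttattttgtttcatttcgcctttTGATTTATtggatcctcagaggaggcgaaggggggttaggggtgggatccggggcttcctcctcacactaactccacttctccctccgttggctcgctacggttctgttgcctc
In the PBX3 window the capitals are CTGTCA, which is TGACAG read on the other strand, with its first base 20 bases before the start, and in the MEIS2 window TGATTTAT lies 64 bases before it. The GC content was 58.3% for the MEIS1 and 76.0% for the PBX3 window, beside a median of 58.7% over all windows.

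PBX2 (ENSG00000204304, minus strand, chr6:32152510-32157979) is a PBX gene active in most tissues. Its level was 154 CPM in RA GFP-positive, 111 CPM in RA GFP-negative, 159.9 CPM in CTR GFP-positive and 136 CPM in CTR GFP-negative cells, a range of 1.44-fold. The RA GFP-negative library was the lowest. With RA the ratio was 0.961 in GFP-positive cells (0.921 to 1.00) and 0.813 in GFP-negative cells (0.746 to 0.887), and GFP-positive cells had 1.39 times the GFP-negative level with RA (1.32 to 1.46) and 1.17 times in CTR. A copy of the gene, PBX2P1, held 57 to 509 reads per library, or 8.91% to 11.5% of the reads of PBX2, and another annotated transcript with 0 reads shares 15.2% of its exon bases. Adding the reads of PBX2P1, an alternative also chosen after the data were seen, moved these ratios little, to 0.964, 0.816, 1.41 and 1.20.

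PBX4 (ENSG00000105717, minus strand, chr19:19672516-19729502), known mainly from the testis, was scarce. It had 70 reads in RA GFP-positive, 80 in RA GFP-negative, 163 in CTR GFP-positive and 21 in CTR GFP-negative cells, which came to 2.62, 3.12, 5.69 and 4.47 CPM. Both RA libraries lay below both CTR libraries. In GFP-positive cells the ratio of RA over CTR was 0.460 (0.343 to 0.612), and in GFP-negative cells it was 0.697 with an interval that included 1 (0.427 to 1.19). The ratios between fractions, 0.840 with RA and 1.27 in CTR, had intervals that included 1, so that no difference was detectable at this depth.

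PKNOX1 (ENSG00000160199, plus strand, chr21:44394620-44454041) encodes a broadly expressed partner of PBX proteins. It was at 36.0 CPM in RA GFP-positive, 20.7 CPM in RA GFP-negative, 26.6 CPM in CTR GFP-positive and 15.3 CPM in CTR GFP-negative cells, higher in GFP-positive cells under both treatments and higher with RA in both fractions. The ratio with RA was 1.35 in GFP-positive (1.23 to 1.49) and 1.35 in GFP-negative cells (1.06 to 1.75), and that of GFP-positive over GFP-negative cells was 1.74 with RA (1.56 to 1.93) and 1.73 in CTR (1.36 to 2.24). The ratio of the RA ratios was 1.00 (0.769 to 1.30).

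PKNOX2 (ENSG00000165495, plus strand, chr11:125034583-125303285), its more restricted paralogue, varied least, over 1.40-fold. It was at 28.3 CPM in RA GFP-positive, 27.7 CPM in RA GFP-negative, 22.0 CPM in CTR GFP-positive and 30.9 CPM in CTR GFP-negative cells, with the CTR GFP-positive library lowest, as for MEIS3. With RA it was 1.29-fold higher in GFP-positive cells (1.16 to 1.44), and in GFP-negative cells the ratio was 0.899 (0.751 to 1.08). GFP-positive cells had 0.712 of the GFP-negative level in CTR (0.593 to 0.859) and 1.02 of it with RA (0.921 to 1.13).

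Ratios of reads of paralogues within a library do not depend on the scaling between libraries. MEIS2 had 4.55 reads per read of MEIS1 in RA GFP-positive, 1.68 in RA GFP-negative, 3.35 in CTR GFP-positive and 2.03 in CTR GFP-negative cells, higher in both GFP-positive libraries. MEIS3 had 1.47, 1.36, 0.502 and 2.07 reads per read of MEIS1 in that order, lowest in CTR GFP-positive cells, where the ratio per kb was 1.07 against 2.91 to 4.42 in the other libraries. Between the RA and CTR libraries the MEIS3 to MEIS1 ratio was 2.93 times as large in GFP-positive cells (2.67 to 3.21) and 0.658 times in GFP-negative cells (0.549 to 0.787). MEIS2 had 6.68 reads per read of MEIS3 in CTR GFP-positive and 3.09 in RA GFP-positive cells, against 0.978 and 1.23 in the CTR and RA GFP-negative cells. The ratio of PKNOX1 to PKNOX2 reads was higher in the GFP-positive libraries, at 1.27 with RA and 1.21 in CTR, than in the GFP-negative ones, at 0.747 and 0.497. For PBX2 over PBX3 the ratio was 1.81 with RA and 1.74 in CTR in GFP-positive cells, and 1.35 and 2.44 in GFP-negative cells. Per kb and among the 8 genes, the MEIS genes made up 44.8% of the summed level in RA GFP-positive, 43.2% in RA GFP-negative, 36.4% in CTR GFP-positive and 35.2% in CTR GFP-negative cells, and the PKNOX genes 6.73% to 8.52%.

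**Figure D4:**
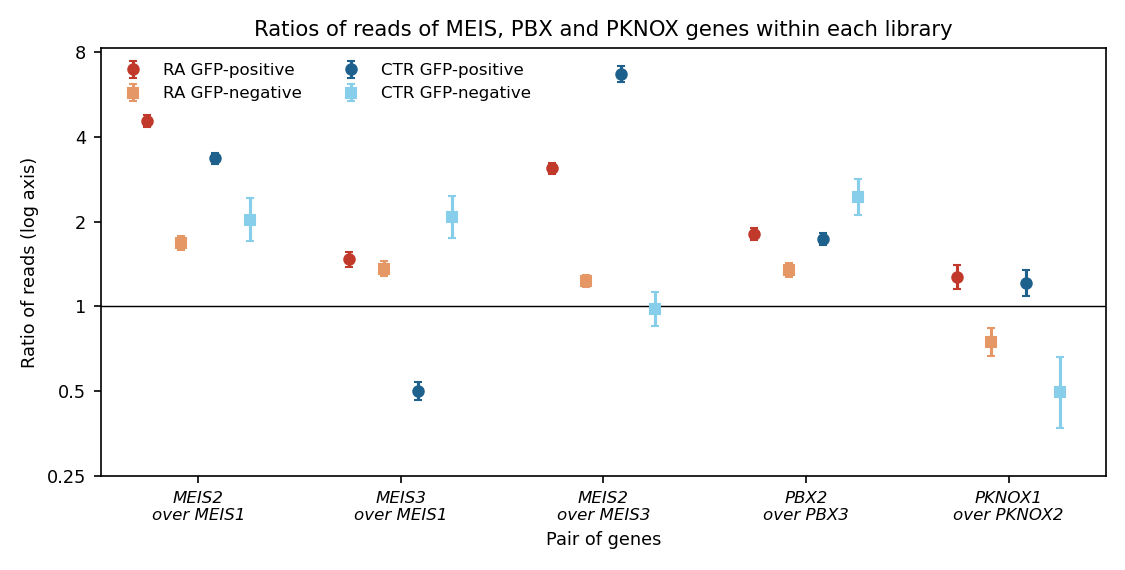
Ratio of reads of paralogous genes within each library on a log axis, with bars for the 95% interval of counting error. The MEIS2 to MEIS1 and PKNOX1 to PKNOX2 ratios are higher in both GFP-positive libraries, and the MEIS3 to MEIS1 ratio is lowest in CTR GFP-positive cells at 0.502.

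Genes with the most similar profiles were sought over the 4 libraries among 12252 genes, by the distance between values of log2(CPM + 1) centred on each gene's own mean, a description over 4 points that share libraries. The closest to MEIS1 were NEDD1, DPH5 and PRPSAP1, and those to MEIS2 were NFYC, a subunit of the CCAAT-binding factor NF-Y, ACOX2 and RANBP10. MEIS3 was closest to GADD45B, a stress-induced gene, SPRY4, an inhibitor of receptor tyrosine kinase signalling, and SAMD14. GADD45B was at 186 CPM in RA GFP-positive, 209.9 CPM in RA GFP-negative, 71.4 CPM in CTR GFP-positive and 159 CPM in CTR GFP-negative cells, low in the same library as MEIS3. The profile of MEIS3 was the least common of the 7 genes compared, with 9 genes within a distance of 0.25. MEIS2 followed with 27, whereas PBX2 had 709. MEIS1 had 112 and PBX3 476 genes within this distance, and the distance between MEIS1 and PBX3 themselves was 0.241. PBX3 was closest to PMPCB, PMF1 and LARP1B, PBX2 to GRIA3, GLE1 and HERC2, PKNOX1 to NR1D1, ISCA1 and COX8A, and PKNOX2 to DNTTIP2, SLC27A4 and TBCB.

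Of 9 other TALE genes, of the IRX and TGIF families and MKX, 6 reached 10 CPM in each RA comparison, though not the same 6. IRX4, a ventricular regulator, was at least 2-fold lower with RA in GFP-positive cells, at 38.3 against 241 CPM, and 0 of the 6 were at least 2-fold higher (1.86% and 4.45% of all genes). In GFP-negative cells IRX1 alone was at least 2-fold higher with RA, at 18.3 against 2.56 CPM, and 0 of 6 were lower (5.42% and 3.58%). Between the fractions with RA, 3 of 7 were at least 2-fold higher in GFP-positive cells and 2 lower (10.5% and 13.0% of all genes). In CTR 2 of 6 were higher and 1 lower (12.7% and 13.8%). IRX4 was 18.2-fold higher in GFP-positive cells with RA and 162-fold in CTR, on 7 GFP-negative reads, and IRX3 10.5-fold and 8.83-fold. TGIF1, a homeodomain repressor that binds a site like that of MEIS proteins, had 0.475 of the GFP-negative level in GFP-positive cells with RA and 0.465 in CTR.

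HOX genes, the classical partners of PBX proteins, reached 10 CPM in these libraries only in groups 1 to 4. Of 12 genes of these groups, 7 had at least 4 reads in RA GFP-positive, 10 in RA GFP-negative, 5 in CTR GFP-positive and 3 in CTR GFP-negative cells. HOXB4 was 2.37-fold higher with RA in GFP-positive cells, at 28.9 against 12.2 CPM (2.09 to 2.70), whereas HOXB2 and HOXB3 had ratios of 0.858 and 0.989. In GFP-negative cells all 5 genes of these groups that reached 10 CPM were at least 2-fold higher with RA (5.42% of all genes were), but 3 of them lay close to that threshold, with ratios of 2.19 for HOXB2, 2.01 for HOXB3 and 2.02 for HOXB4. With library-size scaling, added after the data were seen, 2 of the 5 passed it, HOXA2 and HOXA3, which had 0 reads in CTR GFP-negative cells. These 2 reached 10 CPM only through the RA library, so that their calls were set by passing the minimum. Of 11 genes of the middle groups, 4 had at least 4 reads in RA GFP-positive, 8 in RA GFP-negative, 1 in CTR GFP-positive and 0 in CTR GFP-negative cells, and of 16 genes of the posterior groups 3, 10, 1 and 1 did. None of the middle and posterior genes reached 10 CPM. The CTR GFP-negative library had the fewest reads, and the part of depth in these counts was not tested.

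Of 10 regulators and cardiac partners of PBX proteins, 8 exceeded the GFP-negative level at least 2-fold in GFP-positive cells with RA, as did 7 of the 9 that reached 10 CPM in CTR (10.5% and 12.7% of all genes). The list holds NKX2-5, the reporter locus on which the cells were sorted, so that its call was set by the sort. With RA in GFP-positive cells, ISL1, a factor of the second heart field, was 10.5-fold higher (9.15 to 12.2), and TBX20, a T-box factor of cardiomyocytes, was at 0.311 of its CTR level (0.297 to 0.325). In GFP-negative cells 0 of 9 were at least 2-fold higher with RA (5.42% of all genes) and 1, TBX20, was lower (3.58%). The 8 genes of the RA response had a median log2 difference with RA of 0.46 in the GFP-positive fraction and of 0.82 in the GFP-negative one, and not all were higher. The RA-binding protein gene CRABP2 was higher with RA in both fractions, at 266 against 86.0 CPM in GFP-positive and 197 against 82.6 CPM in GFP-negative cells. STRA6, a membrane receptor for vitamin A transport, was at 0.851 of its CTR level in GFP-positive cells (0.803 to 0.902) and 1.51-fold higher in GFP-negative cells (1.34 to 1.71). The largest ratios with RA among these genes in GFP-negative cells were 10.1 for DHRS3, a retinaldehyde reductase gene (5.07 to 23.5), and 5.69 for the RA receptor gene RARB (2.96 to 12.6), on 8 and 9 CTR reads. In GFP-positive cells CYP26A1, an enzyme that degrades RA, had 1 read with RA and 5 in CTR. Among 3 genes of CDK inhibitors, through which MEIS1 is known to act on the cell cycle, CDKN2B was at 10.4 CPM with RA against 4.71 CPM in CTR GFP-positive cells, and CDKN1A had a ratio of 0.822. In GFP-negative cells their ratios were 1.04 and 0.947. CDKN2A stayed below 10 CPM, with 56 reads with RA against 9 in CTR GFP-positive cells and 240 against 14 in GFP-negative cells, ratios of 6.67 (3.27 to 15.3) and 3.14 (1.83 to 5.83).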

How the data were processed

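RNA from the 4 sorted populations was made into strand-specific libraries and sequenced in pairs. Per the labels and methods, the authors trimmed the reads, aligned them to a custom hg19 by means of GSNAP, sorted the alignments with SAMtools 0.1.18, kept uniquely placed reads and counted them per Ensembl gene with HTSeq 0.6.1p1 in intersection-nonempty mode without strand. The deposited values are these raw counts. The Ensembl release used is not given in the sources used here. As only unique placements counted, reads placed equally well in several positions were lost, which can lower genes with near-identical copies. Reads lying wholly on exon bases that several genes share, on either strand, were not assigned. The low counts given for overlapping transcripts therefore do not measure the reads lost from MEIS1, MEIS2 or PBX2.

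Names were matched by Ensembl identifier for 92.2% of 60234 genes, and 0 columns of per-sample values were left unused. Coordinates and exon lengths came from GENCODE lifted to GRCh37. CPM were computed with TMM factors (0.951 to 1.07) from edgeR 4.0.16 and R 4.3.3, where the authors also used TMM. Differences were taken on log2(CPM + 1), calls as ratios of at least 2-fold among genes reaching 10 CPM on either side, and detection as at least 4 reads. Intervals at the 95% level were Clopper-Pearson for ratios and exact Poisson for CPM, and a normal approximation of the log ratio for ratios of ratios and for changes in within-library ratios. With 1 library per condition there was no test. The genes named beside the 8 were list members with the largest differences, at most 4 per list and comparison, markers of the sorted cell types, and the 3 closest profiles per gene. CYP26A1, CDKN2A and MKX were named after their values were seen. The 8 genes and all lists were chosen with earlier results of these data known. Alternatives were library-size, upper-quartile, pairwise TMM and DESeq2 1.42.0 scaling, library size less mitochondrial genes and the top 10 genes, a pseudocount of 0.25 or 5 CPM, thresholds of 1.5- and 3-fold, other filters, and thinning to 4371101 reads. The calculation of ratios and calls was tested on simulated data. Plots used matplotlib 3.10.9 under Python 3.11.15.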

Additional observations from a re-analysis of the deposited data

Results flagged for a closer look

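MEIS1 and PBX3 stood out because the difference between RA and CTR had opposite signs in the sorted fractions and the counting interval of the ratio excluded 1 in both. On log2(CPM + 1), MEIS1 differed by −0.23 in GFP-positive and by 0.87 in GFP-negative cells, and PBX3 by −0.11 and 0.55. With 1 library per condition this contrast between fractions was not tested, and the share of all genes with this pattern was not counted. Intervals that exclude 1 were common. In GFP-positive cells they lay above 1 for 36.2% and below 1 for 32.4% of genes, and in GFP-negative cells for 35.3% and 23.7%. PKNOX2 also had opposite signs, 0.35 and −0.15, but its interval in GFP-negative cells, 0.751 to 1.08, included 1.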

How the results depend on the processing

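With 1 library per condition, counting error is the only error known, and the 4371101 reads of CTR GFP-negative cells limit its comparisons most. The labels give no replicate numbers to pair, and an additive fit of treatment and fraction over the 4 libraries, with 1 residual degree of freedom, was not made. The direction was kept under all alternatives for 30 of 32 differences of single genes. The exceptions were between the fractions with RA: PKNOX2 was at −0.010 with library-size scaling and −0.085 after thinning, and PBX4 at 0.12 after thinning. The count of genes at least 2-fold higher with RA in GFP-positive cells was 0 at 3-fold. In GFP-negative cells it was 1 after thinning, where MEIS1 reached 0.99 (688 of 11638 genes were higher), and 2 at 1.5-fold. For GFP-positive over GFP-negative cells with RA it was 2 at 1.5-fold and 0 at 3-fold. In CTR the count of higher genes was 2 after thinning, with MEIS1 at 1.01 (1529 of 11842 genes were higher). It was 4 at 1.5-fold, and that of lower genes was 0 at 3-fold. The shares of all genes at 1.5- and 3-fold were not computed, so these counts cannot be set against them. The median with RA in GFP-positive cells was 0.0023 with library-size scaling and 0.21 for genes with at least 10 CPM, and that between the fractions with RA was −0.0011 with library-size scaling and 0.17 after thinning; the cause was not tested. With library-size scaling, the median of all genes shifted by −0.14 in the comparison of GFP-negative cells and by −0.11 between the CTR fractions, and by −0.12 in the former without mitochondrial and the 10 most abundant genes. Of the genes past 2-fold between the GFP-negative libraries, 60.2% were higher with RA, against 46.2% and 47.8% under these scalings. With a minimum of 1 CPM in place of 10, 14.0% of genes passed 2-fold between the GFP-positive and 24.3% between the GFP-negative libraries, against 6.31% and 9.00%. At this minimum PBX4 was also at least 2-fold lower with RA in GFP-positive cells, at 2.62 CPM against 5.69 CPM in CTR.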
